A study of Mus musculus with 13 samples.

Results

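The lymphoid priming genes followed across the RNA-Seq libraries were *Dntt*, *Rag1*, *Rag2*, *Il7r*, *Ebf1*, *Pax5*, *Ikzf1*, *Satb1*, *Notch1*, and *Ighm*. They were taken by name, without regard to a threshold on their values, and all 10 were found among the 54838 genes of the count table. RNA came from Lin-cKit+ BM cells, which lack mature lineage markers and hold hematopoietic stem and progenitor cells (HSPCs), with 50000 sorted cells per mouse. Every mouse carried *Mx1-Cre*, a recombinase gene that interferon induces in hematopoietic cells and also in other tissues. The 3 control mice carried it alone. The 3 p53mut mice also carried 1 heterozygous *p53* R172H allele, the 3 NrasG12D mice 1 heterozygous *Nras* G12D allele, and the 4 NPmut mice both. Control, p53mut, and NrasG12D mice had received pI-pC (an RNA analog that triggers an interferon response), 3 times 100 μg from about 6 weeks of age. NPmut mice had received none and were moribund with leukemia, so that genotype, stage of disease, and injections cannot be told apart in this group. The genotype field of the NrasG12D mice is spelled G21D in the labels, whereas their titles give G12D. The mice were on a C57BL/6J background.

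Lymphoid priming is the low expression of lymphoid genes in multipotent progenitors before they commit to a lineage. *Ikzf1* and *Satb1* encode nuclear proteins that act at this early step. IL-7 receptor signaling, EBF1, and PAX5 then direct B lymphopoiesis, and NOTCH1 signaling directs the T lineage. The RAG1 and RAG2 recombinase cuts the immunoglobulin and T cell receptor loci, terminal transferase, the product of *Dntt*, adds nucleotides at the joints, and *Ighm* encodes the constant region of the μ heavy chain. Transcription of the heavy chain locus begins before it is rearranged.

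In NPmut HSPCs, *Dntt*, *Satb1*, *Notch1*, and *Ighm* were higher than in controls, by 1.77- to 2.93-fold, and 0 of the 10 genes was called lower. The same comparison called 5.38% of all 17795 genes tested as higher and 5.54% as lower. In NrasG12D HSPCs, *Dntt*, *Satb1*, and *Notch1* were 1.65- to 3.71-fold above controls with no overlap between the mice. *Ighm* and *Ikzf1* were also above controls in every NrasG12D mouse, at 1.32- and 1.05-fold, and *Pax5* was below in every mouse, at 0.137 of the control level. The share of all genes whose mice separate in this way was not counted. By edgeR, 0 genes of the set passed the adjusted test in NrasG12D, as did 0.00562% of all genes. In p53mut HSPCs, 0 of the 10 was called, where 0% of all genes were called. *Ikzf1* was above and *Pax5* below controls in every p53mut mouse too, at 1.10-fold and 0.515 of the control level. On unscaled library totals, p53mut and control mice overlapped for both genes, and NrasG12D and control mice overlapped for *Ikzf1*. *Ebf1* and *Pax5* lay close enough to background in every group that stray reads would give 6.90% to 69.8% of their counts. For *Rag1* and *Il7r* this share was 8.03% to 23.8% in control and p53mut, but 1.29% to 5.50% in NrasG12D and NPmut.

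The promoters of *Dntt*, *Satb1*, and *Notch1* are printed to show what they share in sequence. With *Ighm*, which was matched to no promoter window, they are the members that were called higher in NPmut HSPCs. Each is the RefSeq window from 250 bases before to 50 after the start of transcription in GRCm38.p6, read 5′ to 3′ on the strand of the gene, at chr19:41029025-41029324 (plus strand) for *Dntt*, chr17:51833241-51833540 (minus strand) for the outermost *Satb1* start, and chr2:26503773-26504072 (minus strand) for *Notch1*. Capitals mark matches on either strand to the E-box CANNTG, bound by E proteins, and in *Satb1* also the adjoining PU.1 core GAGGAAGT, which lies there on the opposite strand.
Dntt: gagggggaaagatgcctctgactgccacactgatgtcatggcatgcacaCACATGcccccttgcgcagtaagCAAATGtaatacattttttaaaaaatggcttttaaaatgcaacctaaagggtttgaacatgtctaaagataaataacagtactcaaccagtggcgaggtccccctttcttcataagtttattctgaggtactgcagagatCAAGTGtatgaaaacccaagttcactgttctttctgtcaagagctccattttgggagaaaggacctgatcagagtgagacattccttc
Satb1: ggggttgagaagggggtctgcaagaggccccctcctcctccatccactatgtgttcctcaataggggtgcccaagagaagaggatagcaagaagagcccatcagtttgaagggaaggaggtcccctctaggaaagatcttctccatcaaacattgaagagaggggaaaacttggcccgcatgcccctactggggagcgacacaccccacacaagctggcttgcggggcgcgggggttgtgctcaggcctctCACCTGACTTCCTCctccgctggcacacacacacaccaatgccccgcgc
Notch1: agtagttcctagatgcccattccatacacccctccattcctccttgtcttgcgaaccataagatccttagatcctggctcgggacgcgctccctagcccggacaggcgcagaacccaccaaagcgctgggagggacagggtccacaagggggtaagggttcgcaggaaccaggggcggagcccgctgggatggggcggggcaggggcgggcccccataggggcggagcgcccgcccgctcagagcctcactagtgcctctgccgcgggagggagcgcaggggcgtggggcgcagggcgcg

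The printed *Dntt* window held 3 E-boxes, that of *Satb1* 1, and that of *Notch1* none of the 5 motifs searched. Those were the E-box, the PU.1 core, TGGGAA (the core shared by Ikaros and RBPJ), TGTGGT (RUNX), and the STAT palindrome TTCNNNGAA. Of 32851 windows of the same length, 72.3% held an E-box, 3.2% the PU.1 core, 25.6% TGGGAA, 16.8% TGTGGT, and 8.3% the STAT palindrome. No searched motif was therefore common to the 3 printed windows. *Satb1* has other RefSeq windows, and that at chr17:51826539-51826838 held 5 E-boxes and 1 TGGGAA. Members that were not called varied as well. The *Rag1* window held 4 E-boxes, 2 RUNX matches, and 1 TGGGAA, and that of *Il7r* 3 E-boxes, 1 RUNX match, and 1 STAT palindrome. The *Pax5* window held 1 E-box, and the *Ikzf1* window at chr11:11685675-11685974 none of the 5 motifs.

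Library totals ranged from 12576174 to 29124022 counts. The deepest library, NPmut mouse 2, stood apart from the other libraries of its group, with 112 to 128 units of chi-square per gene against 26.7 to 39.2 for the other pairs of NPmut mice. Reads on the receptor genes of smell and pheromone sensing, 1967 in all, which HSPCs should not express, served as a measure of background and moved with the groups. They fell on exons at 0.0254 RPKM in control, 0.0178 in p53mut, 0.00748 in NrasG12D, and 0.00615 in NPmut libraries. These libraries hold bulk RNA, so that a higher share of cells expressing a gene and more RNA of that gene per cell cannot be told apart.

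Per kb of exon, the members differed widely in level. In control HSPCs, *Ikzf1* had 51.2 ± 1.02 RPKM (SD, n = 3) and *Ighm* 44.3 ± 4.07, and the control mice of the 2 genes did not overlap. *Dntt* followed with 14.5 ± 4.96 RPKM, *Notch1* with 6.81 ± 0.644, and *Satb1* with 4.46 ± 0.688, each without overlap with its neighbor. *Rag2* was at 0.662 ± 0.252 RPKM. *Pax5*, *Rag1*, *Il7r*, and *Ebf1* had means of 0.247, 0.139, 0.138, and 0.0788 RPKM, and the ranges of neighbors in this order overlapped.

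**Figure D1:**
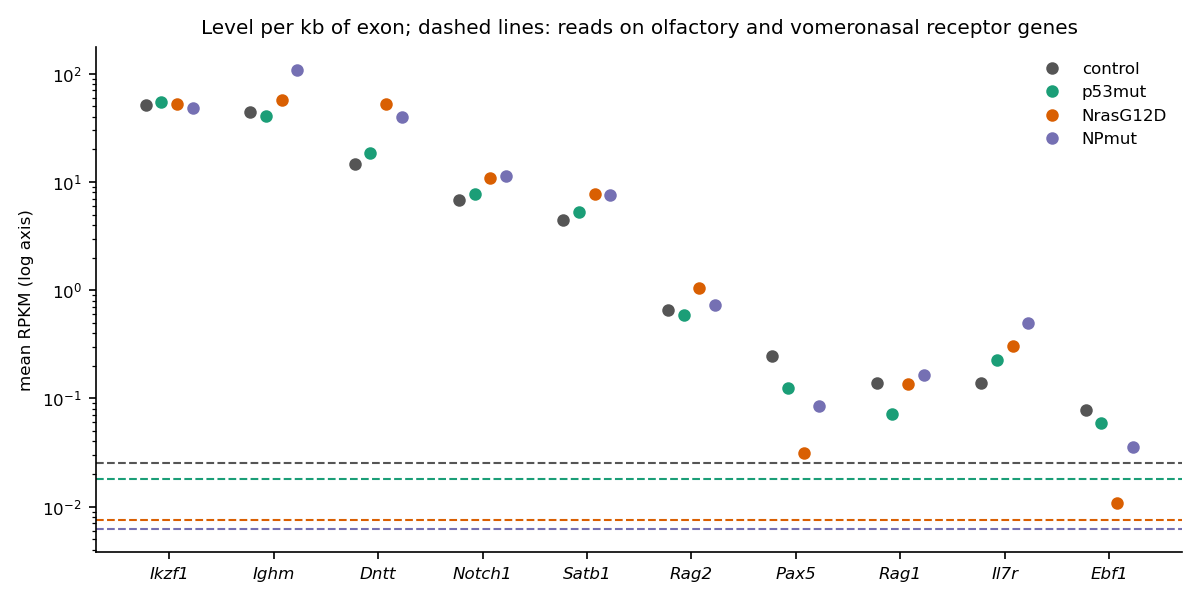
Mean RPKM of each member (log axis) in the 4 groups, ordered by the level in control HSPCs. Dashed lines give the background per kb, from receptor genes, in the group of the same color. *Ebf1* in NrasG12D mice, at 0.0108 RPKM, is nearest to its line at 0.00748, whereas *Ikzf1*, *Ighm*, *Dntt*, *Notch1*, and *Satb1* are far above.

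*Dntt* (ENSMUSG00000025014, chr19:41029275-41059525 on the plus strand of GRCm38) encodes terminal transferase and is among the first lymphoid genes expressed in multipotent progenitors. It was at 43.9, 22.4, and 30.0 CPM in control mice 1 to 3 and at 54.8, 42.6, and 28.2 CPM in p53mut mice. NrasG12D mice had 141, 151, and 64.8 CPM, and NPmut mice 109, 82.4, 136, and 47.5 CPM. Every NrasG12D and every NPmut mouse was above the highest control, and within these groups NrasG12D mouse 3 and NPmut mouse 4 were lowest. On unscaled library totals, however, NPmut mouse 4 (44.5 CPM) was just below control mouse 1 (45.2 CPM). NPmut mouse 4 was below 1 p53mut mouse. The log2 fold change was 1.55 ± 0.40 (SE) for NPmut (edgeR, adjusted p = 0.0292) and 1.89 ± 0.42 for NrasG12D (adjusted p = 0.175). For p53mut it was 0.38 ± 0.42 (adjusted p = 1.00). NPmut and NrasG12D mice differed by -0.34 ± 0.38 (adjusted p = 0.637), and the interaction was -0.72 ± 0.56 (adjusted p = 0.584). The NPmut call was lost without control mouse 2 (adjusted p = 0.112), control mouse 3 (0.115), NPmut mouse 1 (0.0674), or NPmut mouse 2 (0.0750).

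*Rag1* (ENSMUSG00000061311, chr2:101638282-101649501, minus strand) and *Rag2* (ENSMUSG00000032864, chr2:101624718-101632529, plus strand) are neighbors and encode the 2 subunits of the recombinase. *Rag1* had 31, 14, and 1 counts in control, 2, 9, and 10 in p53mut, 15, 13, and 15 in NrasG12D, and 31, 41, 13, and 9 in NPmut mice. On the CPM scale, the 3 control mice spanned the values of all other mice. Background reads at the rate of the receptor genes would give 18.5% of the control, 23.8% of the p53mut, 5.50% of the NrasG12D, and 3.73% of the NPmut counts. *Rag2* had 53, 36, and 26 counts in control, 27, 33, and 27 in p53mut, 55, 69, and 45 in NrasG12D, and 69, 33, 54, and 31 in NPmut mice. Background would give at most 3.83% of these in any group, so that *Rag2* was measured above background throughout. In NPmut against control, the log2 fold change was 0.39 ± 0.69 for *Rag1* (adjusted p = 0.770) and 0.22 ± 0.38 for *Rag2* (adjusted p = 0.759). In NrasG12D it was 0.01 ± 0.74 and 0.69 ± 0.40 (adjusted p = 0.999 and 0.658). Thus neither gene was called in either group. In NrasG12D, where the mean of *Dntt* was highest, *Dntt* was not called either (edgeR, adjusted p = 0.175), so that the test does not set the genes apart there. The standard error of *Rag1* leaves its change unresolved at this depth. Exons of *B230118H07Rik*, with 4388 counts over all libraries, overlap 1.21% of the *Rag1* and 6.07% of the *Rag2* exons, on the opposite strand for *Rag2*, and the counting of strand was not given in the sources used here.

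**Figure D2:**
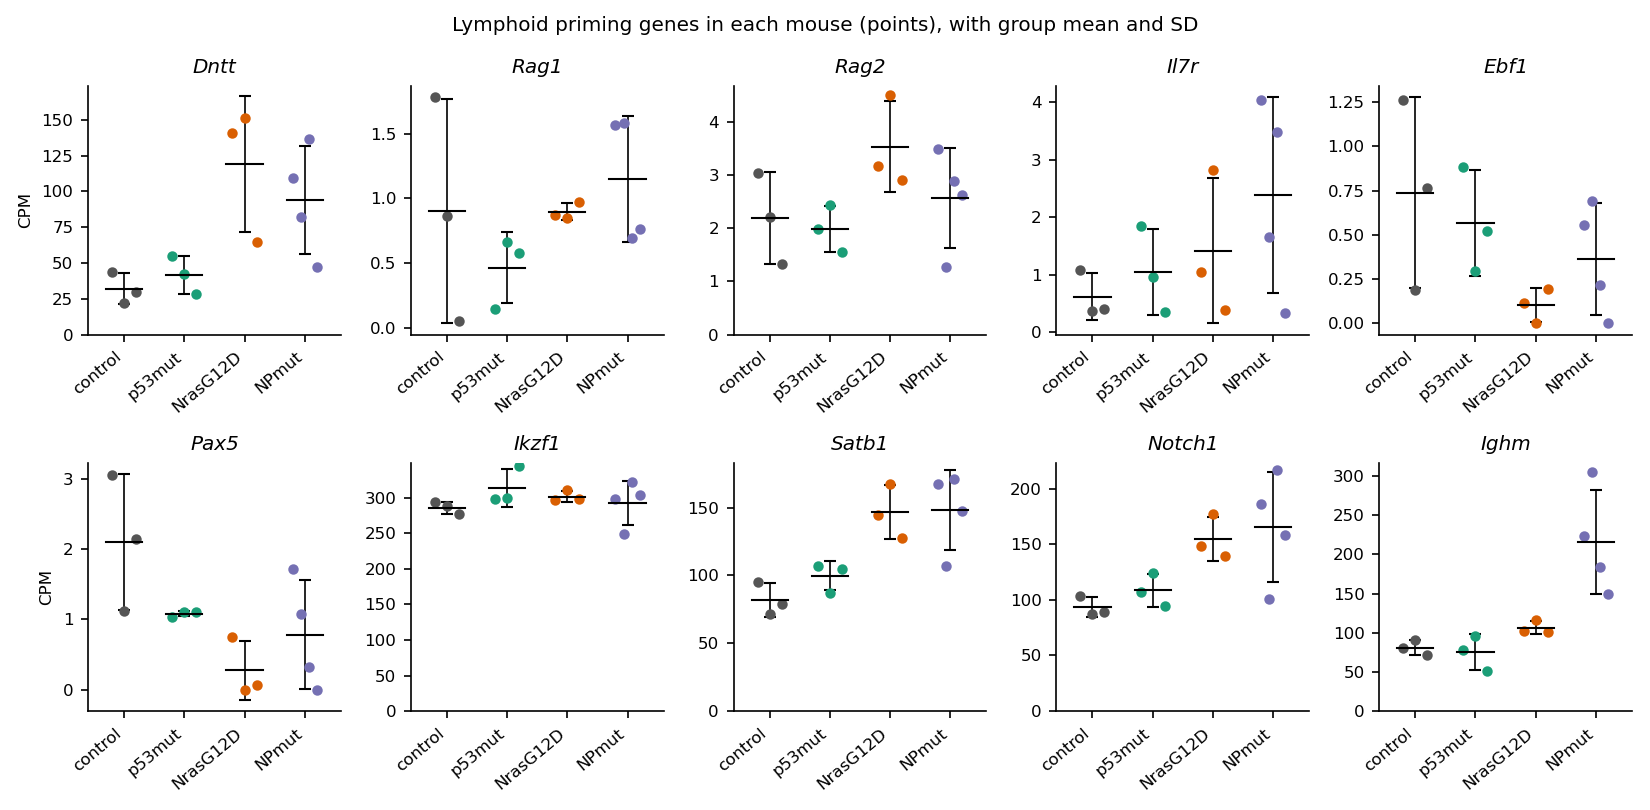
CPM on TMM-scaled library sizes for each member, one point per mouse, with the group mean (bar) and SD (whiskers). NrasG12D and NPmut mice lie above all controls for *Dntt* and *Satb1*, and NPmut mice from 149.5 CPM upward for *Ighm*. On unscaled library totals, the lowest NPmut mouse was below the highest control for *Dntt* and for *Satb1*. The 4 groups overlap for *Il7r*. For *Rag1*, controls span all other mice, and p53mut mice lie below all NrasG12D and NPmut mice.

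*Il7r* (ENSMUSG00000003882, chr15:9505788-9530176, minus strand) encodes the α chain of the IL-7 receptor, which marks common lymphoid progenitors. Its counts were 19, 6, and 8 in control, 25, 13, and 6 in p53mut, 18, 43, and 6 in NrasG12D, and 80, 43, 65, and 4 in NPmut mice. NPmut mice 1, 2, and 3 were above every control on the CPM scale (1.66 to 4.04 against 0.371 to 1.09 CPM), whereas NPmut mouse 4 was at 0.339 CPM, under all 3 controls. The log2 fold change was 1.94 ± 0.81 in NPmut (adjusted p = 0.147) and 1.17 ± 0.86 in NrasG12D (adjusted p = 0.751), so that *Il7r* was not called. Background would give 18.2% of the control and 1.29% of the NPmut counts. As for *Dntt*, NrasG12D mouse 3 and NPmut mouse 4 were the lowest mice of their groups. Among 12977 other genes with a mean of at least 1 log2 CPM, *Dntt* was the second nearest to *Il7r* in pattern over the 13 libraries, with a mean absolute difference of 0.582 in centered log2 CPM, between *Ephb2* (0.571) and *Ppp1r16b* (0.597). Those nearest to *Dntt* were *Msrb3* (0.326), *Ccnd1* (0.335), which encodes cyclin D1, and *Tcf7* (0.354), which encodes the T lineage factor TCF1. This likeness is a description over libraries that share groups and depth.

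*Ebf1* (ENSMUSG00000057098, chr11:44617317-45008091, plus strand) and *Pax5* (ENSMUSG00000014030, chr4:44524757-44710487, minus strand) encode the factors that specify and commit B cell progenitors. *Pax5* had 53, 18, and 42 counts in control, 14, 15, and 19 in p53mut, 13, 0, and 1 in NrasG12D, and 34, 28, 6, and 0 in NPmut mice. On the CPM scale, all NrasG12D mice were below the lowest control, whereas NPmut mouse 1 was within the control range. All p53mut mice were narrowly below it too, at 1.033 to 1.106 CPM against 1.112 CPM in the lowest control. On unscaled library totals, p53mut mouse 3 (1.137 CPM) was above control mouse 2 (1.124 CPM). A count of 0 allows up to 0.197 CPM in NrasG12D mouse 2 and 0.255 CPM in NPmut mouse 4, against a control mean of 2.10 CPM. *Ebf1* had 22, 3, and 15 counts in control, 12, 4, and 9 in p53mut, 2, 0, and 3 in NrasG12D, and 11, 18, 4, and 0 in NPmut mice. Controls overlapped with each other group, with NrasG12D only through control mouse 2 (0.185 CPM). NrasG12D mice (0 to 0.194 CPM) were below all p53mut mice (0.295 to 0.886 CPM). In NrasG12D, the log2 fold change was -2.86 ± 1.02 for *Pax5* (adjusted p = 0.388) and -2.75 ± 1.04 for *Ebf1* (adjusted p = 0.416). In NPmut it was -1.36 ± 0.83 (adjusted p = 0.330) and -0.90 ± 0.80 (adjusted p = 0.520). Neither gene was called in either comparison. Of the 5 *Ebf1* counts in NrasG12D libraries, 3.49 would be background, and of the 40 in controls 12.6. For *Pax5*, background would account for 3.17 of 14 and 11.4 of 113 counts. The fall of the background from control to NrasG12D libraries thus went the same way as these genes, and its part in them was not tested.

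*Ikzf1* (ENSMUSG00000018654, chr11:11685003-11772926, plus strand), the gene of the zinc finger protein Ikaros, varied little. It was at 294, 288, and 276 CPM in control, 297.5, 299, and 345 CPM in p53mut, 296, 310.3, and 298 CPM in NrasG12D, and 297.5, 249, 321, and 304 CPM in NPmut mice. Every group mean lay between 286 and 314 CPM. The log2 fold change was 0.03 ± 0.10 in NPmut (adjusted p = 0.866), 0.08 ± 0.11 in NrasG12D (adjusted p = 0.892), and 0.13 ± 0.11 in p53mut (adjusted p = 1.00).

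*Satb1* (ENSMUSG00000023927, chr17:51736187-51833290, minus strand) encodes a chromatin organizer that promotes lymphoid fates in stem cells. It was at 95.5, 71.4, and 78.9 CPM in control, 107, 87.3, and 105 CPM in p53mut, 144.5, 168, and 128 CPM in NrasG12D, and 168, 107, 171, and 147 CPM in NPmut mice. NrasG12D and NPmut mice were all above the highest control, and NPmut mouse 2 was the lowest of the 7. On unscaled library totals, NPmut mouse 2, the library that stood apart, was below control mouse 1 (95.25 against 98.3 CPM). The log2 fold change was 0.86 ± 0.16 in NPmut (adjusted p = 0.00439) and 0.84 ± 0.17 in NrasG12D (adjusted p = 0.0941). The difference between these groups was 0.02 ± 0.16 (adjusted p = 0.967).

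*Notch1* (ENSMUSG00000026923, chr2:26457903-26516663, minus strand), which encodes the receptor that instructs T lineage fate, gave a similar order of groups. It was at 104, 87.7, and 89.4 CPM in control, 107, 124.5, and 94.8 CPM in p53mut, 148, 177, and 139 CPM in NrasG12D, and 186, 101, 217, and 158 CPM in NPmut mice. All NrasG12D mice were above the controls, but NPmut mouse 2, the library that stood apart, was below control mouse 1. The log2 fold change was 0.82 ± 0.20 in NPmut (adjusted p = 0.0174) and 0.73 ± 0.21 in NrasG12D (adjusted p = 0.251). The NPmut call was lost without control mouse 2 (adjusted p = 0.0726), control mouse 3 (0.0798), or NPmut mouse 1 (0.0510). The antisense gene *0610009E02Rik* overlaps 7.5% of the *Notch1* exons and had 83 counts over all libraries.

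**Figure D3:**
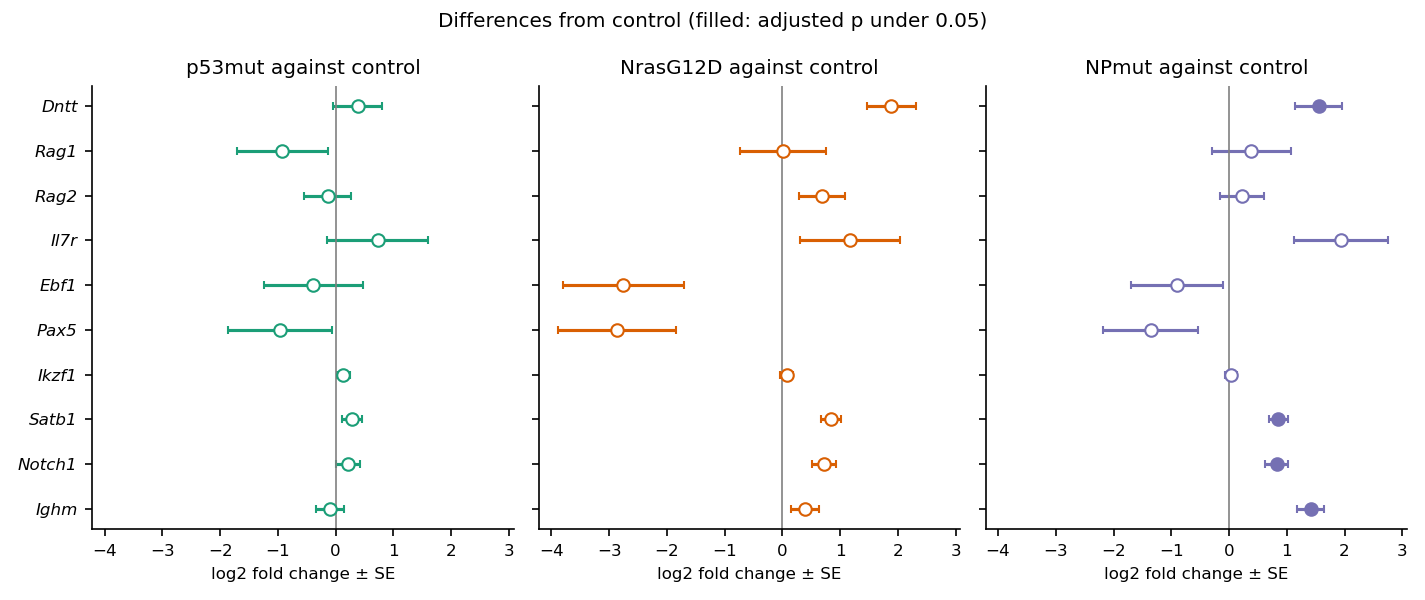
Log2 fold change against control (points) with its SE (bars) for each member in p53mut, NrasG12D, and NPmut mice, with filled points where the edgeR adjusted p was under 0.05. The filled points are *Dntt*, *Satb1*, *Notch1*, and *Ighm* in NPmut. *Pax5* and *Ebf1* in NrasG12D are farthest below 0 and have the widest bars.

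*Ighm* (ENSMUSG00000076617, chr12:113418558-113422730, minus strand, annotated as a constant gene of the heavy chain locus) had the smallest adjusted p of the members in NPmut. It was at 80.1, 90.7, and 71.6 CPM in control, 78.5, 96.3, and 50.8 CPM in p53mut, 102, 116, and 101 CPM in NrasG12D, and 224, 305, 184, and 149.5 CPM in NPmut mice. NPmut mice were above all other mice, and NrasG12D mice lay between them and the controls without overlap with either. The log2 fold change was 1.42 ± 0.23 in NPmut (adjusted p = 0.00211), 0.40 ± 0.24 in NrasG12D (adjusted p = 0.683), and -0.10 ± 0.24 in p53mut (adjusted p = 1.00). *Ighm* was the 1 member called between NPmut and NrasG12D mice, at 1.02 ± 0.23 (adjusted p = 0.0148), where 3.92% of all genes were called higher, and that call was lost without NrasG12D mouse 1 (adjusted p = 0.0682) or NrasG12D mouse 3 (0.0600). The interaction, which compares NPmut with the effects of p53mut and NrasG12D added together, was 1.12 ± 0.33 for *Ighm* (adjusted p = 0.105). For the interaction, edgeR called 0 of the 10 members and 1.74% of all genes, with 1 member and 16.1% of all genes at an unadjusted p under 0.05, whereas DESeq2 called 1, *Ighm* (adjusted p = 0.0261), and 5.75% of the genes it tested.

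Other immunoglobulin reads, summed after the *Ighm* counts had been seen, did not all move with *Ighm*. The 24 *Ighd* and *Ighj* segments, which lie upstream of *Ighm* and are lost in part when the locus rearranges, had 27, 25, and 15 counts in control, 21, 18, and 21 in p53mut, 51, 26, and 24 in NrasG12D, and 105, 110, 84, and 49 in NPmut mice. On the CPM scale, NPmut mice (4.16 to 5.31) were above all controls (0.765 to 1.55). *Ighj1* had 138 and *Ighd4-1* 68 counts over the 4 NPmut libraries, 26 and 42 over the 3 NrasG12D libraries, and 20 and 8 over the 3 control libraries. The 183 *Ighv* segments had 5.15 to 7.29 CPM in control and 0.848 to 2.74 CPM in NPmut mice, and the constant genes of the light chains 7.66 to 9.08 CPM and 0.0536 to 3.05 CPM. NrasG12D mice had 1.30 to 1.97 CPM and 1.11 to 4.11 CPM, and p53mut mice 3.13 to 5.31 CPM and 2.21 to 10.4 CPM. NPmut and NrasG12D mice were thus below all controls in both, whereas p53mut mouse 1 was not. The heavy chain constant genes other than *Ighm* summed to 10 to 11.4 CPM in control and 2.41 to 4.16 CPM in NPmut mice. Among them, *Ighd* was higher in NPmut (1.52 to 1.72 against 0.510 to 0.805 CPM), with at most 40 counts per library. *Igkv* segments had 5.45 to 7.53 CPM in control and 0.424 to 1.23 CPM in NPmut mice, there 5 to 32 counts beside up to 13.3 expected from background. Background would give 21.8 to 35.1 of the 101 to 118 *Ighv* counts per control mouse. It would give 6.75 to 8.83 of 20 to 30 per NrasG12D and 2.51 to 15.3 of 10 to 71 per NPmut mouse. Its part in the *Ighv* difference was not tested. The 15 markers of B cells and of the pre-B receptor summed to 22.7 to 27.1 CPM in control and 15.85 to 26.5 CPM in p53mut mice. They summed to 15.1 to 19.5 CPM in NrasG12D and 19.5 to 33.8 CPM in NPmut mice. Of the 7 that could be tested, 0 was called higher and 1 lower in NPmut, where 5.38% and 5.54% of all genes were. The defining markers *Cd79a* and *Ms4a1* had means of at most 0.479 CPM in control and 0.171 CPM in NPmut mice, near the value of a few reads. *Cd79b*, the signaling chain of the B cell receptor, was at 17.4 ± 5.0 CPM in NPmut (SD, n = 4) and 10.98 ± 1.53 CPM in control mice (SD, n = 3).

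**Figure D4:**
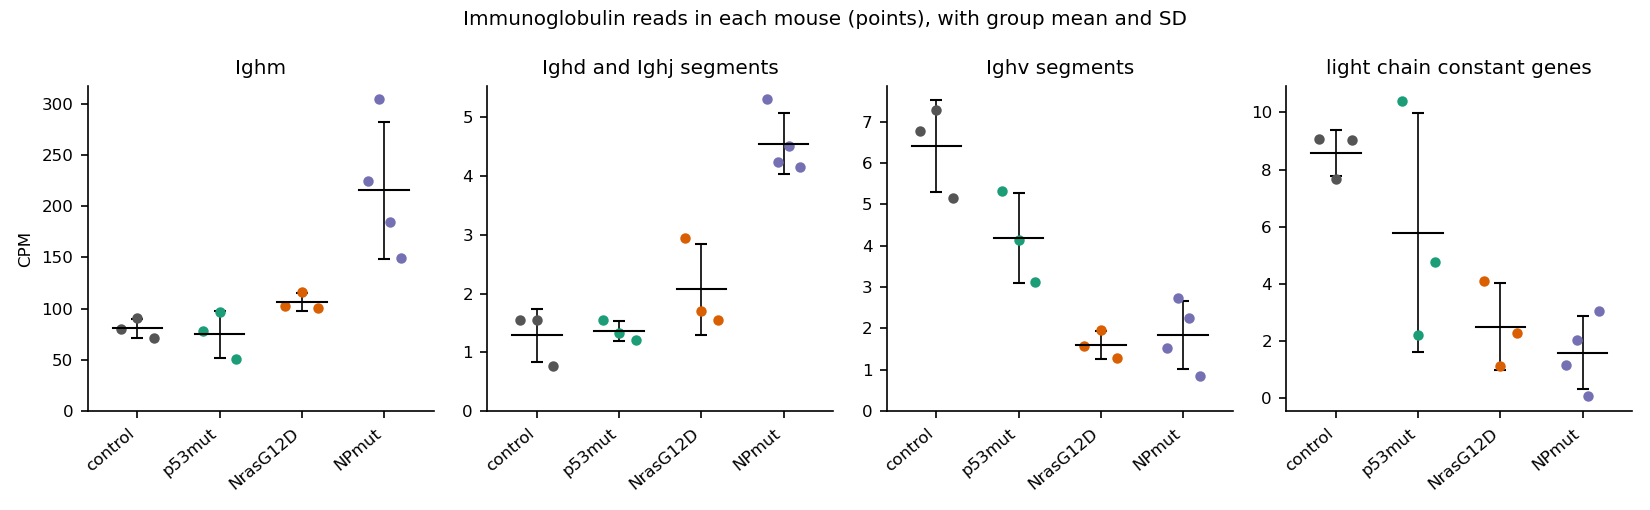
CPM of *Ighm*, of the summed *Ighd* and *Ighj* segments, of the summed *Ighv* segments, and of the light chain constant genes, one point per mouse, with group mean and SD. NPmut mice are above all controls in the first pair of panels, and NPmut and NrasG12D mice are below all controls in the last pair.

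Over the set, the median log2 fold change of the 10 members was 0.61 in NPmut, 0.54 in NrasG12D, and 0.02 in p53mut, beside -0.01 to 0.01 for all genes tested. The NPmut and NrasG12D comparisons share their control mice, so that these values are not independent. In NrasG12D, edgeR called 0.00562% of all genes. There, 5 of the 10 members (*Dntt*, *Satb1*, *Notch1*, *Pax5*, and *Ebf1*) had an unadjusted p under 0.05, as had 9.23% of all genes, and DESeq2 called 2, *Dntt* (adjusted p = 0.0117) and *Satb1* (0.00532), where it called 0.866% of all genes. In p53mut, edgeR called 0% of all genes, 0 members and 2.33% of all genes had an unadjusted p under 0.05, and DESeq2 called 0 members. With the level of receptor reads as a covariate, only *Ighm* of the 4 NPmut calls remained, and the log2 fold changes of the others were 2.14 for *Dntt*, 0.61 for *Satb1*, and 0.91 for *Notch1* (adjusted p = 0.103, 0.177, and 0.140).

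Markers of other cell types moved in NPmut HSPCs beside these genes, and their part in the calls was not tested. NPmut against control called 5.38% of all genes higher and 5.54% lower. The 12 monocyte and macrophage markers summed to 622 to 719 CPM in control, 505 to 787 CPM in NrasG12D, and 1547 to 2625 CPM in NPmut mice, with 6 of 12 called higher in NPmut. The 12 dendritic cell markers summed to 116 to 122 CPM in control, 139 to 154 CPM in NrasG12D, and 92.9 to 145 CPM in NPmut mice. Of the 10 dendritic cell markers tested, 4 were called higher and 2 lower, and *Siglech*, which marks plasmacytoid dendritic cells, a cell type that can transcribe *Dntt*, averaged 0.198 ± 0.171 CPM in control (SD, n = 3) and 2.34 ± 0.224 CPM in NPmut mice (SD, n = 4). The other plasmacytoid genes of the list were mixed. *Cox6a2* averaged 0.563 ± 0.317 CPM in control and 2.68 ± 1.40 CPM in NPmut mice, *Irf7* 10.5 ± 3.72 CPM in control and 5.22 ± 0.995 CPM in NPmut mice, and *Tcf4* 83.2 ± 9.40 and 83.0 ± 17.1 CPM. All 5 megakaryocyte markers tested were called lower. The 15 T and NK markers summed to 64.5 to 79.8 CPM in control and 51.6 to 66.0 CPM in NPmut mice, with 0 of 8 called, and *Cd3e* was at most 0.287 CPM in any mouse of both groups. *Kit*, by which the cells were sorted, was at 540 ± 31.7 CPM in control and 372 ± 66.4 CPM in NPmut mice.

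The other genes of these pathways did not move as one in NPmut HSPCs. Of the 13 tested genes of V(D)J recombination and end joining, 0 was higher and 1 lower. That was *Xrcc5*, the gene of the DNA end-binding protein Ku80, at -1.27 ± 0.24 log2 (adjusted p = 0.00475). Of the 12 tested genes of IL-7 receptor signaling, 1 was higher and 3 were lower. *Mcl1*, a survival gene of the BCL2 family, was higher at 0.67 ± 0.12 (adjusted p = 0.00266). The cytokine gene *Il7* fell by 1.95 (adjusted p = 0.0234) but had at most 29 counts in any control and 14 in any NPmut library, *Stat5a* fell by 0.47 (adjusted p = 0.0277), and *Cish*, a feedback target of STAT5, fell by 1.36 (adjusted p = 0.0352). The comparison called 5.38% of all genes higher and 5.54% lower.

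Of 27 tested lymphoid transcription factors, 5 were higher and 3 lower, where NPmut against control called 5.38% of all genes higher and 5.54% lower. *Irf8*, which also drives monocytes and dendritic cells, was higher by 1.85 ± 0.23 (adjusted p = 0.00044), and *Id2* and *Id1*, inhibitors of the E proteins that activate lymphoid genes, by 2.17 ± 0.32 (adjusted p = 0.000894) and 1.88 ± 0.37 (adjusted p = 0.00505). *Ikzf2*, the gene of the Ikaros relative Helios, fell by 1.15 (adjusted p = 0.00655). Of 22 tested genes of the Notch pathway, 2 were higher and 1 lower. Together these were 13.6% of the list, near the 10.9% of all genes called in either direction. The ligand gene *Jag2* was higher by 1.52 ± 0.37 (adjusted p = 0.0175), the E3 ligase gene *Dtx4* by 0.67 ± 0.16 (adjusted p = 0.0139), and the receptor gene *Notch3*, with at most 24 counts in any control and 8 in any NPmut library, was lower by -2.29 ± 0.67 (adjusted p = 0.0403).

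Of 16 tested genes of early lymphoid progenitors and their surface, 6 were higher and 1 lower, with a median of 0.78. Among all genes, 5.38% were called higher and 5.54% lower. *Ly86*, which partners the Toll-like receptor relative RP105 and is also expressed by monocytes, was higher by 2.17 ± 0.34 (adjusted p = 0.00171), the tetraspanin gene *Cd53* by 1.04 ± 0.18 (adjusted p = 0.00211), and *Cxcr4*, the receptor for CXCL12, by 1.15 ± 0.24 (adjusted p = 0.0075). *Flt3*, the cytokine receptor of lymphoid-primed progenitors, named here after its values had been seen, averaged 71.8 ± 24.2 CPM in control (SD, n = 3), 159 ± 36.0 CPM in NrasG12D (n = 3), and 159 ± 66.7 CPM in NPmut mice (n = 4), where it was higher by 1.15 ± 0.31 (adjusted p = 0.0336). In NrasG12D and in p53mut against control, edgeR called 0 genes of any of these 5 lists. It called 0.00562% and 0% of all genes there, so that this count says little about the lists. The median of the early lymphoid list in NrasG12D was 0.52.

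**Figure D5:**
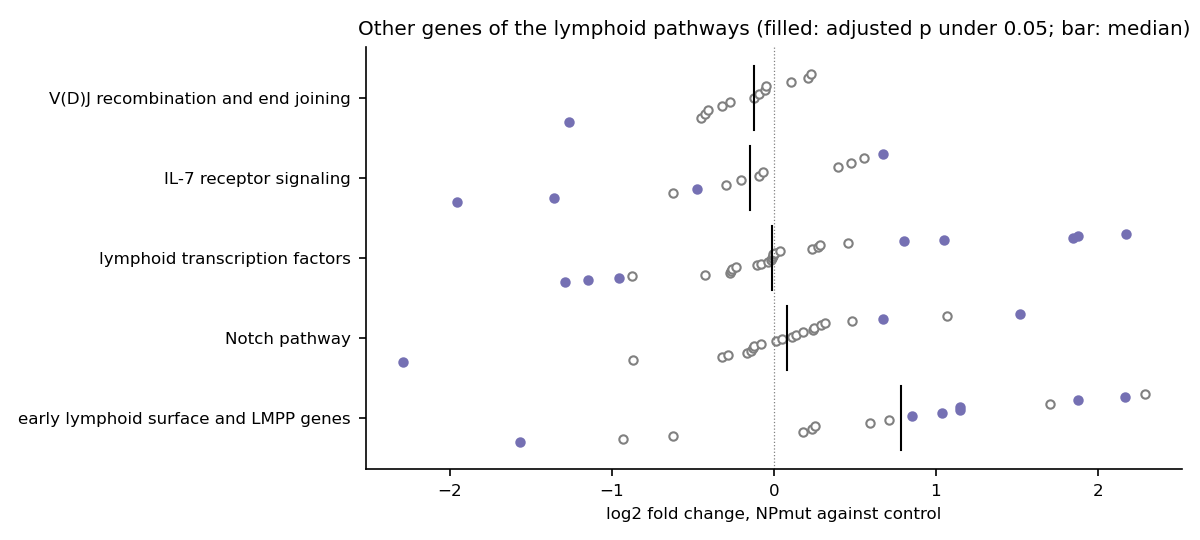
Log2 fold change of NPmut against control for every tested gene of 5 lists of lymphoid pathway genes, with filled points for an adjusted p under 0.05 and a bar at the median. Filled points lie on both sides of 0 for IL-7 receptor signaling, transcription factors, and the Notch pathway, and 6 of the 7 in the early lymphoid list are above 0.

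Between NPmut and NrasG12D mice, a comparison that uses no control library, the early lymphoid list had 3 genes higher and 2 lower. Of all genes, 3.92% were called higher there and 4.97% lower. *Cd27*, a marker of lymphoid-primed progenitors named after its values had been seen, was at 127 ± 28.1 CPM in NrasG12D (SD, n = 3), 88.5 ± 17.1 CPM in control (SD, n = 3), and 57.5 ± 14.9 CPM in NPmut mice (SD, n = 4). It fell by 1.14 from NrasG12D to NPmut (adjusted p = 0.00427), and its interaction was -1.31 ± 0.30 (adjusted p = 0.0444). In the IL-7 receptor list, 1 gene was higher and 3 were lower, among them *Il2rg*, the common γ chain that pairs with the product of *Il7r*, which fell by 0.85 (adjusted p = 0.0349) and was likewise named after its values had been seen.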

How the data were processed

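RNA-Seq libraries were made from total RNA of 50000 sorted cells per mouse with a stranded kit for small inputs. The authors deposited raw read counts per gene under Ensembl identifiers, and the submitters' processing notes name GRCm38.p6, STAR 2.6.1d, R 3.6.1, and DESeq2 1.26.0. The counting program, its setting for strand, and the annotation are not given in the sources used here. Names, coordinates, and exonic lengths were taken from GENCODE M21, which holds 54809 of the 54838 identifiers, and promoters from RefSeq, which had windows for 9 of the 10 members.

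Counts were tested with edgeR 4.0.16 in R 4.3.3 by a robust quasi-likelihood fit of all 13 libraries, with TMM factors and no covariate, after filterByExpr had kept 17795 genes, among them all 10 members. Adjustment followed Benjamini and Hochberg over these genes, and calls have an adjusted p under 0.05. SEs are the log2 fold change divided by the square root of F. CPM use TMM-scaled library sizes, and RPKM use library totals and exonic length. Background reads on a member are the reads per kb on receptor genes times its exonic length. The procedure was tested on simulated data. Replicates are separate mice, and no pair of libraries differed by as little as sampling noise. Floors for a count of 0 are 3 counts and cover counting error only. At the smallest total, 12576174 counts, members with a few reads are imprecise.

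The members and the lists were chosen with earlier results of these data known. The text names all members, from each list up to 4 of the genes called in NPmut against control with the smallest adjusted p, and the 3 genes nearest in pattern to *Dntt* and to *Il7r* (log2 CPM with a prior count of 2). A gene that this rule takes is not reported here. Same-numbered control and p53mut mice deviated together from the means of their groups (correlations of 0.302, 0.223, and 0.218), although neither labels nor paper say what the number marks. The alternatives tried were a DESeq2 1.42.0 fit, RLE factors, unscaled totals, other filters, only the compared groups, a replicate block, background as a covariate, and each mouse left out in turn.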

Additional observations from a re-analysis of the deposited data

How the results depend on the processing

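The 4 calls in NPmut against control ranged from 2 to 4 when each mouse was left out in turn and were 1 with the background covariate, a setting that cannot be told apart from the groups, with which background moves. Without a filter on low counts, *Dntt* lost its call (adjusted p = 0.0899) and *Il7r* gained one (0.00284), and in a fit of only the compared groups *Notch1* lost its call (0.0702). In NrasG12D against control, where 0 members were called, DESeq2 called 2, the fit without a filter 3 (*Pax5*, *Satb1*, and *Notch1*), the fit of only the compared groups 2 (*Satb1* and *Notch1*), and the fit with a replicate block 1 (*Satb1*, adjusted p = 0.0455). Between NPmut and NrasG12D, the count ranged from 0 to 1 over the mice left out. For the interaction, DESeq2, no filter, and the replicate block each called 1, *Ighm*. The block also called 5 members in NPmut against control, with *Il7r* added (adjusted p = 0.0266). Same-numbered NPmut and control mice correlated at -0.0273, 0.335, and 0.00604, and NrasG12D and control mice at -0.171, 0.128, and 0.133. NPmut mice correlated with p53mut mice at -0.0308, 0.276, and 0.242, and with NrasG12D mice at 0.220, 0.356, and -0.185. Signs were thus mixed in each of these pairs of groups, and whether they share more than a number was not tested. In the p53mut and control libraries alone, a replicate block, chosen after the data had been seen, called 0 members. Signs turned for genes near 0 or with few reads. *Rag1* in NrasG12D was at -0.00119 with DESeq2 and -0.0206 on library totals, and *Ikzf1* at -0.0779 on library totals and -0.0757 with the background covariate in NPmut and at -0.00882 with that covariate in NrasG12D. Over the mice left out, *Rag1* ranged from -0.18 to 1.40 in NPmut and from -0.56 to 1.03 in NrasG12D, both ends set by control mice 3 and 1, *Rag2* in NPmut from -0.039 to 0.55, and *Ikzf1* in NPmut from -0.014 to 0.10. The cause of these changes was not tested, except that fits without a mouse hold fewer libraries.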
